A study of Homo sapiens with 48 samples.

Results

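IGF-I added for 4 h to serum-starved T47D-YA-IRS-1 #10 cells was compared with serum-free medium (SFM) at the same time, across 54613 probe sets on 6 of the 48 arrays of the series. T47D-YA is a variant of the T47D breast cancer line that lacks insulin receptor substrate (IRS) adaptor proteins but keeps the IGF-I receptor, and #10 is a single clone of it that was made to express human IRS-1. Both groups of 3 arrays share that background and 24 h in SFM before the treatment. According to the protocol, the cells then received SFM+FN, where FN is fibronectin, either alone or with IGF-I. The other clones of the series, which are #20 with IRS-1 and #1 and #6 with IRS-2, and the 24 h arrays of #10, all with SFM arrays of their own, were used to show where #10 at 4 h differed. In addition, all 48 arrays entered the fit, where they set the pooled variance and the choice of the brightest probe set of a gene. The arrays of a group carry the letters A, B and C, and no label says whether they came from separate cultures, so the spread between them may be technical. Every p-value and SE of the limma fit rests on that spread pooled over all 16 groups, not on the 6 arrays alone.

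The IGF-I receptor is a tyrosine kinase that phosphorylates IRS proteins, which then recruit phosphatidylinositol 3-kinase and the GRB2-SOS complex. The first route leads through AKT, which keeps FOXO transcription factors out of the nucleus, and through mTORC1, which favours ribosome and amino acid synthesis. The second leads through RAS to the kinase ERK, which switches on growth genes such as CCND1 and, with a delay, its own inhibitors of the DUSP, Sprouty and SPRED families. In breast epithelium IGF-I is known as a mitogen and survival factor.

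The 6 arrays were alike. Their log2 values ran from 3.16 to 15.36 with medians of 7.47 to 7.50, and the correlation of arrays was 0.9972 to 0.9979 within IGF-I, 0.9957 to 0.9972 within SFM and 0.9954 to 0.9974 between the groups. The 9 defining luminal markers had mean levels of 10.46 to 14.85 in either group, with KRT18, a keratin of simple epithelia, at the top. The 8 basal and mesenchymal markers measured lay between 5.72 and 9.91 and the 9 leukocyte and endothelial ones between 5.25 and 9.41, and 0 of the 26 passed limma's adjusted p, where 2 were higher and 3 lower at an unadjusted p under 0.05. In a longer luminal list of 19 genes XBP1 (0.26) and AGR2 (0.14) rose and ELF3 (-0.20) fell, of which XBP1 alone passed without IGF-I B or SFM B and 0 in a fit of the 6 arrays alone. The 3′ minus 5′ signal of the array's control probe sets, a sign of RNA integrity, differed between IGF-I and SFM by -0.026 log2 for ACTB (exact permutation p = 0.3) and 0.015 for GAPDH (exact permutation p = 0.5), where 3 arrays against 3 cannot go below 0.1. IRS1 itself had log2 values of 8.07, 7.89 and 8.03 in SFM and 7.95, 8.04 and 8.28 with IGF-I (log2 fold change 0.09 ± 0.08 SE), and the sources used here do not say whether its probe sets lie in the introduced cDNA.

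IGF-I changed few genes by much and many by little. By limma 34 of the 54613 probe sets, 0.0623%, were called, which means a Benjamini-Hochberg adjusted p under 0.05 and a change of at least 1.5-fold. Of these, 17 were higher and 17 lower, and they stood for 13 genes that rose, 8 that fell and 4 probe sets with no single gene symbol. On all 34 the IGF-I and SFM arrays did not overlap, against 16.7% of all probe sets. The 34 were chosen on these same arrays, so the lack of overlap follows largely from that choice. The adjusted p alone was passed by 991 probe sets, 1.81%, of which 427 were higher and 564 lower, with a median change of 1.23-fold. Per gene, taking the brightest probe set of each of 19775 genes, 233 rose (1.18%) and 291 fell (1.47%). The count of 34 held between 31 and 39 when any 1 array was left out, but the count of 991 went down to 442 without IGF-I array B, to 596 without IGF-I A and to 637 without SFM B, and up to 1874 after quantile normalization, of which 959 were higher and 915 lower. Every count of list members below rests on that second threshold. Those of the fit as reported are to be read beside the shares of 1.18% and 1.47% of all genes. Those of another fit are to be read beside the genes that passed in it. Of all genes, 146 rose and 174 fell without IGF-I A, 95 and 143 without IGF-I B, and 228 and 153 without IGF-I C. The numbers were 355 and 281 without SFM A, 161 and 181 without SFM B, and 165 and 182 without SFM C. In a fit of only the arrays compared they were 50 and 44, after quantile normalization 536 and 483 and after median centring 121 and 139. Arrays of equal RNA give shares of the total, so fewer transcripts per cell and fewer cells with a transcript cannot be told apart.

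**Figure D1:**
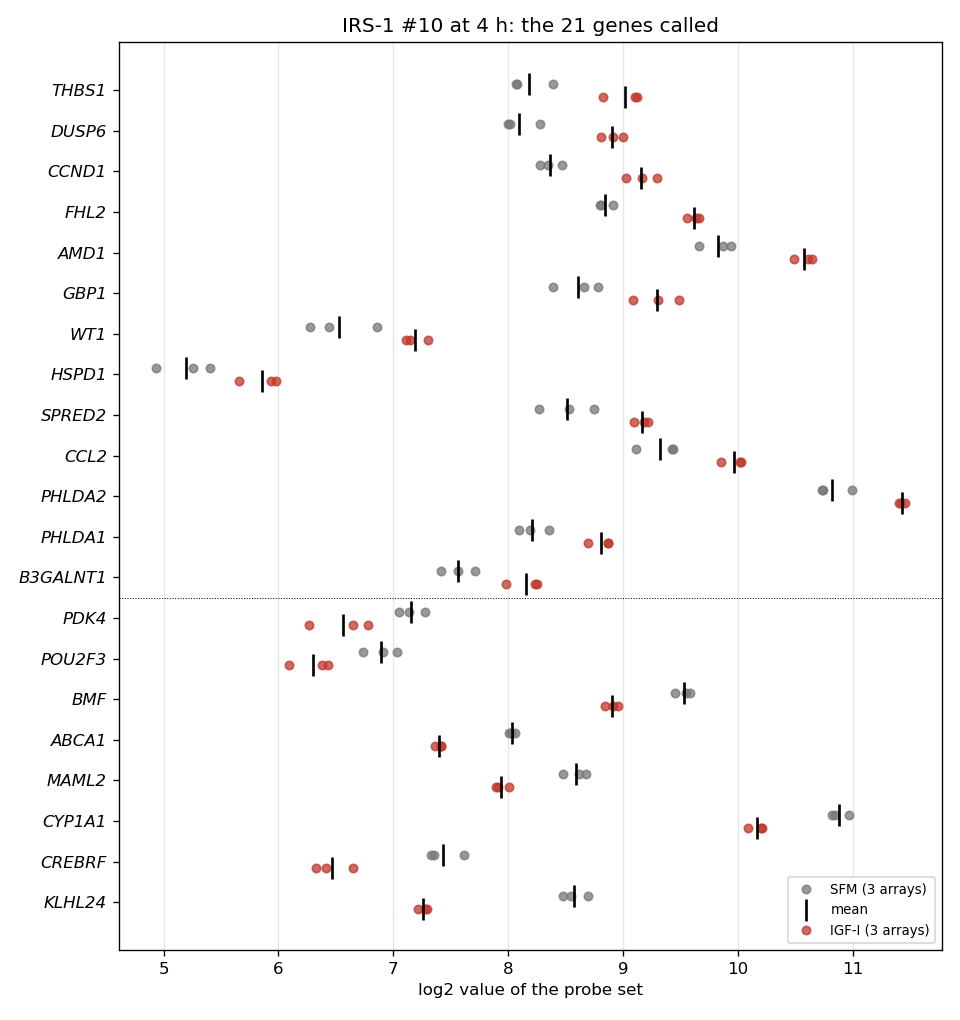
Log2 values of the 6 arrays for the 21 genes called, 1 row per gene, each shown by its called probe set with the largest change; points are single arrays (grey SFM, red IGF-I), bars are means of 3, and the dotted line separates the 13 genes that rose from the 8 that fell. The groups are apart in every row, most widely for KLHL24 (-1.31 log2) and CREBRF (-0.97), and the other 19 moved by 0.59 to 0.84 log2.

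DUSP6 and SPRED2, which restrain ERK signalling, were among the rises. DUSP6, a phosphatase that removes the activating phosphates from ERK, had log2 values of 8.28, 8.0 and 8.01 in SFM and 8.91, 9.0 and 8.81 with IGF-I. Its lowest IGF-I array was thus above the highest SFM array, a 1.75-fold rise (0.81 ± 0.08, adjusted p = 3.15e-10) with 2 of its 3 probe sets called. SPRED2, a membrane protein that blocks the activation of RAF by RAS, had 8.53, 8.75 and 8.27 in SFM and 9.09, 9.22 and 9.18 with IGF-I, a 1.57-fold rise (0.65 ± 0.07, adjusted p = 3.29e-08) on 1 of its 3 probe sets, which came to 0.52 log2 without SFM array C, the lowest. PHLDA2, a small pleckstrin-homology protein, had 10.99, 10.74 and 10.74 against 11.42, 11.45 and 11.40 (0.60 ± 0.05), and its relative PHLDA1 8.35, 8.19 and 8.09 against 8.87, 8.87 and 8.70 (0.60 ± 0.09). For PHLDA2 1 of 3 probe sets was called, and for PHLDA1 1 of 6, with 2 past the adjusted p, a range of 0.03 to 0.60, and the brightest at 0.14 (adjusted p = 0.53). Both calls stayed past the adjusted p when any array was left out, but their change was under 1.5-fold without SFM C (0.56 and 0.54), for PHLDA2 also without SFM B (0.56), and for PHLDA1 without IGF-I A or B (both 0.57).

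Of 24 ERK feedback genes measured, 8 rose and 1 fell, against 1.18% and 1.47% of all genes, and their median log2 fold change was 0.13 against -0.0078 over all genes. SPRED1 (0.45), ERRFI1 (0.44), an inhibitor of ERBB receptors, SPRY2 (0.33), DUSP5 (0.31) and SPRY1 (0.28) rose beside DUSP6, SPRED2 and PHLDA2, and LRIG1 (-0.23), a negative regulator of ERBB receptors, fell. PHLDA1, which counts by its brightest probe set here, did not pass. DUSP4 at 0.30 and DUSP7 at 0.23 did not pass, and DUSP1, SPRY4 and SOCS3 lay between -0.05 and 0.02. Between 6 and 8 members rose and 0 fell when any 1 array was left out, and 5 in a fit of the 6 arrays alone.

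FOS and EGR1, transcription factors that ERK switches on first, did not pass at 4 h. FOS had 7.10, 6.96 and 6.91 in SFM and 7.11, 7.05 and 7.20 with IGF-I (0.13 ± 0.09, adjusted p = 0.62), and EGR1 7.74, 7.70 and 7.57 against 7.70, 7.66 and 7.72 (0.02 ± 0.09, adjusted p = 0.96). In both genes the groups overlapped. Of 35 immediate and delayed early factors 2 rose, the ETS family members ELK3 (0.40) and ETV5 (0.37), and 2 fell, the AP-1 subunit FOSL2 (-0.35) and the epithelial factor ELF3 (-0.20), with a list median of 0.02. The 2 falls were lost without IGF-I B, IGF-I C or SFM B, while 1 rose without IGF-I B and 4 without IGF-I C. Of 14 Kruppel-like factors 1 rose, KLF10 at 0.31, an early TGF-beta and growth factor response gene, and of the fits that left out an array it passed in that without IGF-I C alone.

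CCND1 was the one cell cycle gene called. It encodes cyclin D1, which activates CDK4 and CDK6 in G1, and its log2 values were 8.47, 8.35 and 8.28 in SFM and 9.30, 9.16 and 9.02 with IGF-I, so that the gap between the groups was wider than the range within either. The rise was 1.73-fold (0.79 ± 0.07, adjusted p = 3.25e-11), with the other probe set also past the adjusted p at 0.51. CCNE2, cyclin E2, rose by 0.23 (adjusted p = 0.047), and the other 25 of 27 G1 genes measured, CDKN2B (0.09), E2F1 (0.02), MYC (0.01) and MYBL2 (-0.17) among them, did not pass. Without IGF-I A, IGF-I B, SFM B or SFM C 1 of the 27 rose. Of 36 DNA replication genes 0 passed limma's adjusted p, with changes from -0.20 to 0.16, and at an unadjusted p under 0.05 3 were higher and 6 lower. After quantile normalization 2 of them rose and 1 fell, without IGF-I C 1 rose and without SFM A 1 fell. Of 44 mitosis genes 1 rose and 3 fell, where 1.18% of all genes rose and 1.47% fell. MAD2L1 rose by 0.21, and the kinetochore protein CENPF (-0.29), the kinesin KIF18A (-0.26) and the checkpoint kinase TTK (-0.24) fell. Of these 0 passed without IGF-I A, IGF-I C or SFM B, after median centring or in a fit of the 6 arrays alone, 1 fell and 0 rose without SFM C, and 2 fell and 0 rose without IGF-I B.

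AMD1 had the smallest adjusted p among the genes that rose. It encodes S-adenosylmethionine decarboxylase, which supplies the aminopropyl groups for the polyamines spermidine and spermine. Its values were 9.94, 9.87 and 9.66 in SFM and 10.64, 10.61 and 10.49 with IGF-I, a 1.69-fold rise (0.76 ± 0.06, adjusted p = 6.14e-13) with both of its probe sets called. The lowest IGF-I array lay above every SFM array.

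THBS1 showed the largest rise. It encodes thrombospondin-1, a secreted matrix protein that releases TGF-beta from its latent complex, and its values were 8.39, 8.08 and 8.07 in SFM and 9.11, 9.12 and 8.82 with IGF-I, a 1.79-fold rise (0.84 ± 0.11, adjusted p = 4.66e-07). Of its 7 probe sets 1 was called and 3 passed the adjusted p, with values from 0.05 to 0.84, and their mean changed by 0.29. FHL2, a LIM-only coregulator and SRF target, had 8.80, 8.92 and 8.81 against 9.64, 9.66 and 9.56, with little spread in either group (0.78 ± 0.06, adjusted p = 3.17e-12). CCN1, a matrix protein and YAP target, rose by 0.52 ± 0.06, just under 1.5-fold. Of 29 targets of SRF and YAP, the factors that answer to actin and cell spreading, 6 rose and 0 fell (median 0.07), TPM1, CNN3 and AJUBA by 0.15 to 0.28, while CCN2 at 0.13, ANKRD1 at 0.04 and VCL at 0.14 did not pass, and in a fit of the 6 arrays alone 3 rose. With an array left out, 4 rose without IGF-I A, IGF-I B or SFM C, 5 without SFM A or SFM B and 6 without IGF-I C. TPM1 and CNN3 each passed in 2 of these fits.

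The bases before a start of FHL2 and of THBS1 are shown since these are the 2 called genes of that list, as RefSeq gives them for GRCh38.p14. The FHL2 stretch, chr2:105438545-105438664 on the minus strand, covers bases 151 to 32 before a listed start, and capitals mark a CArG box, the site of SRF, followed directly by an E-box. The THBS1 stretch, chr15:39580959-39581078 on the plus strand, covers the 120 bases before its start, and capitals mark a TEAD site.
FHL2: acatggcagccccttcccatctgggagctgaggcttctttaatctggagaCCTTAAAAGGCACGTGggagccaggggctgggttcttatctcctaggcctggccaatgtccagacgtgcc
THBS1: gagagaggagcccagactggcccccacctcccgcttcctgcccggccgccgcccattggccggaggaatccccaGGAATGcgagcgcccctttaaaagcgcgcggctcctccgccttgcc

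Such letters were searched on both strands in windows from 250 bases before to 50 after each listed start, of which 17 of the 21 called genes had one, 10 that rose and 7 that fell; CCL2, CCND1, PHLDA2 and POU2F3 had none. A gene counted where any of its windows held the letters, and the share over 15381 genes of the array is given beside each count. The CArG box was in 2 of the 10 and 1 of the 7 (1.66% of genes), the E-box CACGTG in 2 and 2 (10.9%), the TEAD site GGAATG in 4 and 0 (15.7%) and the AP-1 site TGANTCA in 2 and 1 (8.09%). The C/EBP-ATF response element TGATGNAA was in 3 and 0 (3.61%), the forkhead site GTAAACA in 1 and 0 (3.76%), the E2F site TTTNGCGC in 1 and 0 (2.90%) and the cyclic AMP response element TGACGTCA in 0 and 0 (3.10%). The xenobiotic response element TNGCGTG was in 0 and 1 (8.28%) and the NF-kB site in 1 and 1 (15.96%). These are matches of letters in few genes, without a test, and the stretches printed were chosen after the matches were seen.

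**Figure D2:**
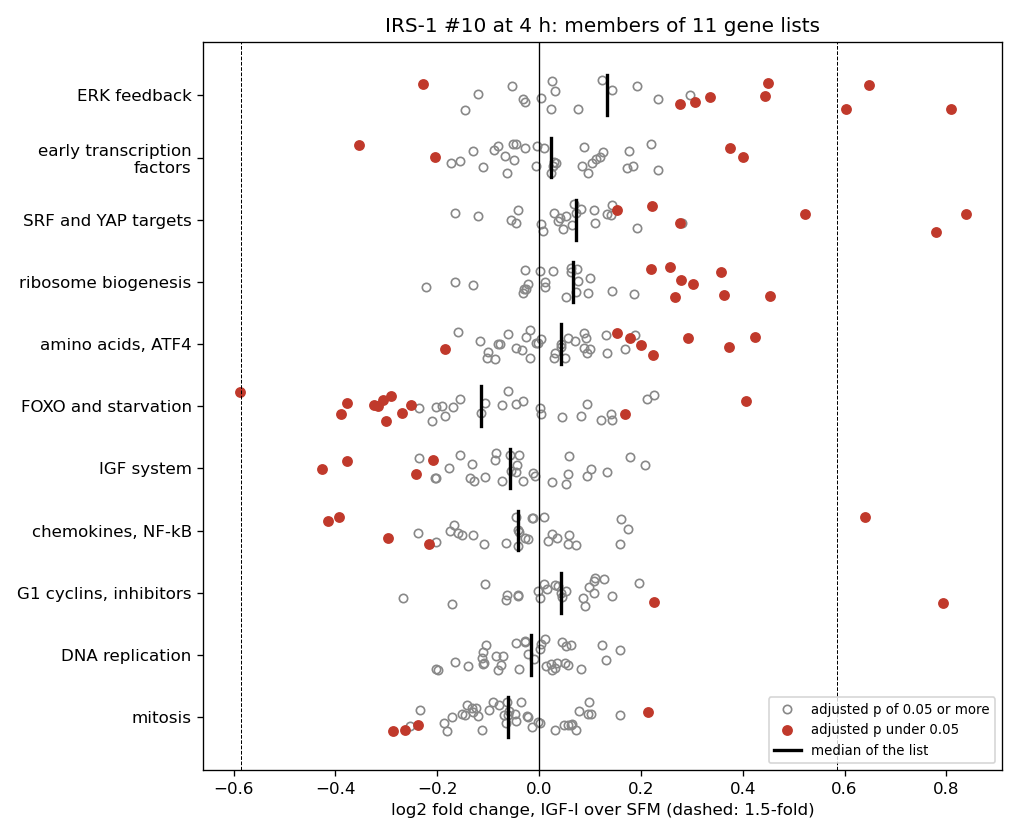
Log2 fold change of IGF-I over SFM at 4 h for the members of 11 of the 28 gene lists, 1 point per gene; filled red points have an adjusted p under 0.05, black bars are list medians and dashed lines mark 1.5-fold. ERK feedback, SRF and YAP targets and ribosome biogenesis have their filled points mostly or all to the right, FOXO and starvation genes mostly to the left, and DNA replication has 0.

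Secreted and interferon-type genes were represented among the rises by CCL2 and GBP1. CCL2, a chemokine that attracts monocytes, had 9.43, 9.43 and 9.11 in SFM and 10.03, 10.02 and 9.85 with IGF-I (0.64 ± 0.08, adjusted p = 1.36e-07), and 0.53 without SFM C, the lowest array. Other chemokines and cytokines of its list did not pass, CCL20 at 0.16, CXCL8 at 0.03 and IL6 at 0.17 among them. GBP1, an interferon-inducible guanylate-binding GTPase, had 8.66, 8.39 and 8.78 against 9.31, 9.49 and 9.08 (0.68 ± 0.09, adjusted p = 2.22e-06), with 2 of 4 probe sets called, 1 of them lost without SFM B (0.58) and the other without IGF-I B (0.57). It was the only one of 33 guanylate-binding and interferon-stimulated genes to pass, and GBP2 (-0.25), ISG15 (-0.06) and IFIT1 (0.12) did not.

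The remaining genes that rose were WT1, B3GALNT1 and HSPD1. WT1, a zinc finger transcription factor of the kidney and gonad, had 6.86, 6.44 and 6.27 against 7.30, 7.11 and 7.14 (0.66 ± 0.10), with 1 of 2 probe sets called and 0.54 without SFM C. B3GALNT1, which builds the globoside glycolipid, had 7.72, 7.42 and 7.56 against 8.23, 8.25 and 7.98 (0.59 ± 0.09), on 1 of 3 probe sets, whose suffix marks possible cross-hybridization, and 0.52 to 0.55 without SFM B, IGF-I A or IGF-I B. The HSPD1 call, for a mitochondrial chaperone, came from a dim probe set at 5.26, 4.93 and 5.40 against 5.94, 5.98 and 5.65 (0.66 ± 0.16, adjusted p = 0.022), while the other 4 probe sets of the gene moved by 0.02 to 0.04. It lost its call without IGF-I A (0.62), IGF-I B (0.60) or SFM B (0.52). The gene nearest to the threshold without reaching it was AHR at 0.58 ± 0.07, followed by RHOBTB1 (0.58), SIPA1L2 (0.57) and, among the falls, JMY (-0.57), where the smallest called changes were PDK4 (-0.59) and B3GALNT1 (0.59).

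KLHL24 fell more than any other gene. It encodes a substrate receptor of a cullin-3 ubiquitin ligase, and its log2 values were 8.55, 8.47 and 8.69 in SFM and 7.27, 7.29 and 7.22 with IGF-I, a gap of more than 1 log2 unit between the groups. The fall was 2.48-fold (-1.31 ± 0.11, adjusted p = 3.17e-12), with 4 of its 5 probe sets called and all 5 past the adjusted p, and the 3 probe sets that changed at least 2-fold in this comparison were all its own. CREBRF, which promotes the breakdown of the stress factor CREB3 and is tied to starvation metabolism, had 7.35, 7.33 and 7.61 against 6.65, 6.33 and 6.42, a 1.95-fold fall (-0.97 ± 0.11, adjusted p = 7.63e-08) with 3 of 5 probe sets called. BMF, a BH3-only protein that promotes apoptosis, had 9.46, 9.59 and 9.55 against 8.96, 8.85 and 8.91 (-0.63 ± 0.06, adjusted p = 4.85e-09). PDK4, a kinase that turns off pyruvate dehydrogenase in fasting, had 7.05, 7.13 and 7.28 against 6.78, 6.65 and 6.27 (-0.59 ± 0.11, adjusted p = 0.0012), on 1 of 3 probe sets, and fell by 0.44 without IGF-I C, its lowest array, and by 0.53 without SFM C.

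The KLHL24 bases shown, 250 to 131 before its start at chr3:183635373-183635492 on the plus strand, hold an AP-1 site in capitals; they are given as those of the gene with the largest change.
KLHL24: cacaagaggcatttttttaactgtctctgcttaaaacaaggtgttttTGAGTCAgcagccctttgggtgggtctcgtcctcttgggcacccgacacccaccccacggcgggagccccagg

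Of the 35 FOXO and starvation genes measured, 10 fell and 2 rose, with a median of -0.11. Beside PDK4 and KLHL24, which is represented there by its brightest probe set at -0.39, those that fell were INSR (-0.38), the insulin receptor, ULK1 (-0.32), the kinase that starts autophagy, YPEL3 (-0.32), RICTOR (-0.31), a subunit of mTORC2, PIK3IP1 (-0.30), an inhibitor of phosphatidylinositol 3-kinase, FOXO3 (-0.29), BCL6 (-0.27) and ERBB3 (-0.25). The 2 that rose were the arrestin-domain genes ARRDC4 (0.41) and TXNIP (0.17), whose best known inducer is glucose. ARRDC4 passed with any 1 array left out, and TXNIP passed in 0 of those fits. IRS2 (-0.20), IGF1R (-0.16), CCNG2 (-0.19) and the sestrins SESN1 to SESN3 (-0.06 to 0.21) did not pass. Without IGF-I A 5 of the 35 fell, and in a fit of the 6 arrays alone 1 did, and 1 rose without IGF-I A, IGF-I B, SFM B or SFM C. Without IGF-I C or SFM A 2 rose, ARRDC4 and GADD45A, which was at 0.23 and did not pass as reported.

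Few of the pathway's own components passed. Of 33 genes of the receptor, its ligands, binding proteins and adaptors 0 rose and 4 fell by limma (3 and 10 at an unadjusted p under 0.05), namely PHLPP1 (-0.43), a phosphatase of AKT, INSR, AKT2 (-0.24) and TSC1 (-0.21), an inhibitor of mTORC1. The 4 falls became 1 without IGF-I C or after median centring, 2 without IGF-I B or any 1 of the SFM arrays, and 0 in a fit of the 6 arrays alone, and 1 gene rose without SFM C or after quantile normalization. IGF1R had 9.79, 9.71 and 9.86 in SFM and 9.64, 9.70 and 9.56 with IGF-I (-0.16 ± 0.06, adjusted p = 0.23), and IRS2 7.44, 7.50 and 7.57 against 7.35, 7.18 and 7.38 (-0.20 ± 0.09, adjusted p = 0.32). The groups did not overlap in either, but neither passed. Of 12 ERBB ligands and receptors 2 fell, ERBB2 (-0.27 ± 0.05) and ERBB3 (-0.25 ± 0.04), both receptors that signal as a pair, and both passed with any 1 array left out but not in a fit of the 6 arrays alone. Of 17 BCL2 family genes 2 fell, BMF and the pro-apoptotic BIK (-0.23), while BCL2 (0.05), MCL1 (-0.12) and PMAIP1 (0.29) did not pass. With an array left out 2 of them fell without SFM C and 1 in the other fits.

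ABCA1 and CYP1A1 were also among the falls, each the only gene of its list to fall past the adjusted p. ABCA1, which exports cholesterol to high-density lipoprotein, had 8.02, 8.0 and 8.06 in SFM and 7.41, 7.41 and 7.36 with IGF-I, a 1.55-fold fall with hardly any spread (-0.64 ± 0.09, adjusted p = 1.64e-05). It was called on 2 of 4 probe sets, 1 of these calls being lost without IGF-I B (-0.56), and the mean over all 4 fell by 0.25. The other 10 of 11 liver X receptor targets measured did not pass, and ABCG1 was at -0.02. Of 24 cholesterol and fatty acid synthesis genes HMGCS1 (0.29) and SQLE (0.16) rose and their regulator SREBF2 (-0.24) fell. The fall was lost with any 1 array left out, and 0 rose without IGF-I A, 1 without IGF-I B, IGF-I C, SFM B or SFM C, and 0 after median centring, with variances without trend or in a fit of the 6 arrays alone. The ABCA1 bases 207 to 88 before the start, chr9:104928243-104928362 on the minus strand, hold an E-box, in capitals.
ABCA1: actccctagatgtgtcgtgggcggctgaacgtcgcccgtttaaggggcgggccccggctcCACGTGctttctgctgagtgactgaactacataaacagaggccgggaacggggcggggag

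CYP1A1, a monooxygenase and the standard target of the aryl hydrocarbon receptor, had 10.82, 10.85 and 10.97 in SFM and 10.20, 10.09 and 10.21 with IGF-I (-0.71 ± 0.08, adjusted p = 3.83e-08). The receptor gene AHR itself went the other way, with 8.63, 8.48 and 8.62 against 9.11, 9.31 and 9.07 (0.58 ± 0.07, adjusted p = 5.08e-07). Of the 12 genes of that list LMCD1 (0.36) also rose, and CYP1B1 (-0.09), TIPARP (-0.02) and AHRR (-0.06) did not pass. MAML2, a coactivator of Notch, had 8.48, 8.61 and 8.67 against 8.01, 7.89 and 7.91 (-0.65 ± 0.09, 1 of 2 probe sets called). POU2F3, an octamer-binding factor of epidermis and tuft cells, was dim at 6.91, 6.73 and 7.03 against 6.43, 6.38 and 6.09 (-0.59 ± 0.11), on 1 of 2 probe sets, and fell by 0.49 without IGF-I C, by 0.53 without SFM C and by 0.58 without SFM A. The 4 called probe sets without a single symbol had changes of 0.59, -0.60, -0.62 and -0.74, the last of which kept its call in 1 of the 6 fits that left out an array.

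Some inhibitors of NF-kB fell. NFKBIA, the inhibitor that holds NF-kB in the cytoplasm, had 11.55, 11.55 and 11.65 in SFM and 11.15, 11.19 and 11.17 with IGF-I (-0.41 ± 0.05, adjusted p = 4.01e-07), a 1.33-fold fall with the groups well apart on 1 of its 2 probe sets. TNFAIP3, a deubiquitinase that ends NF-kB signalling, fell by 0.30, NFKBIE by 0.22 and the subunit REL by 0.39. The inhibitors NFKBIB (-0.04), NFKBIZ (0.01) and TNIP1 (-0.17) did not pass. With CCL2, 1 of 32 genes of that list rose and 4 fell, and 2 fell without IGF-I B, IGF-I C, SFM A or SFM B, and 1 in a fit of the 6 arrays alone. Of 16 TNF receptor family genes TNFRSF12A, the receptor of TWEAK, rose from a range of 10.84 to 11.01 to one of 11.20 to 11.28 (0.28 ± 0.05, adjusted p = 0.00047) and TNFRSF1A fell by 0.25, which did not pass without IGF-I C or SFM A.

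Of 30 ribosome biogenesis genes measured, 8 rose and 0 fell (median 0.07), led by NIP7 (0.45 ± 0.08) and RRS1 (0.36 ± 0.04), both assembly factors of the large subunit. WDR43 (0.36), BRIX1 (0.30), POLR1B (0.28), a subunit of RNA polymerase I, NOP58 (0.27), NOP16 (0.26) and NOP2 (0.22) were the others, while the other 22, such as NCL (0.10), NPM1 (0.06), FBL (-0.02) and NOP14 (-0.22), did not pass. The count fell to 3 without IGF-I B, 4 without SFM B and 5 without SFM C, and to 2 in a fit of the 6 arrays alone. Of all genes 95, 161, 165 and 50 rose in these fits, in the same order, where 233 rose as reported. Of 40 genes of amino acid supply and ATF4, 7 rose and 1 fell. PSPH (0.42 ± 0.08) and PSAT1 (0.37 ± 0.07) make serine and MTHFD2 (0.18 ± 0.04) works in the mitochondrial folate cycle. CEBPG (0.29), the arginine transporter SLC7A1 (0.22), ATF4 (0.20) and TRIB3 (0.15) also rose, and the transporter SLC38A2 (-0.18) fell. Here 3 rose without IGF-I A or IGF-I B, 4 without any 1 of the SFM arrays, and 2 in a fit of the 6 arrays alone, and 0 fell without IGF-I C or SFM C and 2 without SFM A. SLC7A11, the cystine transporter, passed on 1 of 3 probe sets, with values from 0.13 to 0.49.

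Of the lists not yet named, that of p53 targets held the most genes that passed. Of 27 genes on this p53 list, which also holds the cyclins CCND1 and CCNE2, 6 rose and 1 fell. Of all genes 1.18% rose and 1.47% fell. The 6 include CCND1, THBS1 and CCNE2, named above, beside PLK2 (0.42 ± 0.06), a kinase of centriole duplication, TIGAR (0.41) and AEN (0.30). The gene that fell was TP53INP1 (-0.30), which passed with any 1 array left out but not in a fit of the 6 arrays alone. CDKN1A (0.10) and MDM2 (-0.02) did not pass. Of 32 TGF-beta family genes THBS1 rose and LTBP1 (-0.27), which tethers latent TGF-beta, fell, LTBP1 not passing without IGF-I C or SFM C. TGFB1 had 8.01, 8.42 and 7.89 against 8.09, 7.83 and 7.97 (-0.14 ± 0.10, adjusted p = 0.61), and TGFB2 7.28, 7.30 and 7.34 against 7.67, 7.62 and 7.47 (0.28 ± 0.10, adjusted p = 0.13). The TGFB2 groups did not overlap, but 0 of its 5 probe sets passed. Of 32 estrogen response genes CCND1, XBP1 (0.26) and AGR2 (0.14) rose and MYB (-0.24) fell, the fall passing in 1 of the 6 fits that left out an array, that without SFM C. Of 30 hypoxia and glycolysis genes EGLN3, a prolyl hydroxylase, rose (0.55 ± 0.08) where ADM was at 0.14 and VEGFA at 0.13. Of 26 clustered histones H2BC21 fell (-0.23), but 0 fell without IGF-I A, IGF-I B or SFM B and 2 without SFM C. Of 33 integrin, laminin and focal adhesion genes 0 passed in limma (4 higher and 4 lower at an unadjusted p under 0.05), and 1 rose without IGF-I C or SFM A.

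Nearly all called probe sets had the same sign in the other clones, whose arrays had no part in their choice except through the pooled variance. Of the 17 probe sets called as higher, 17, 16 and 17 had the same sign at 4 h in clones #20, #1 and #6 respectively, with 14, 15 and 16 past the adjusted p, and median changes of 0.51, 0.56 and 0.69 beside 0.66 in #10. All 17 called as lower were lower in each clone, 12, 13 and 13 of them past the adjusted p, with medians of -0.52, -0.56 and -0.51 beside -0.65. The medians of #10 are raised by the choice of probe sets on its own arrays. No share over all probe sets is given here beside the counts of the same sign or of those past the adjusted p in the other clones. CCND1 rose by 0.78, 0.78 and 0.69 in the same 3 clones, FHL2 by 0.85, 0.86 and 0.98, and KLHL24 fell by 1.30, 1.15 and 1.23. In the other direction, 24 probe sets were called as higher in all 3 other clones, which is a choice made without the arrays of #10. In #10, 23 of them were higher, 11 passed the adjusted p and 6 were called, with a median of 0.35 against 0.79, 0.85 and 1.04 in clones #20, #1 and #6. The medians of these 3 clones are raised by the choice, which asked for at least 1.5-fold in each. A lower median in #10 is thus partly set by that choice. All 4 probe sets called as lower in the other 3 clones were called in #10 too, and all were of KLHL24.

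**Figure D3:**
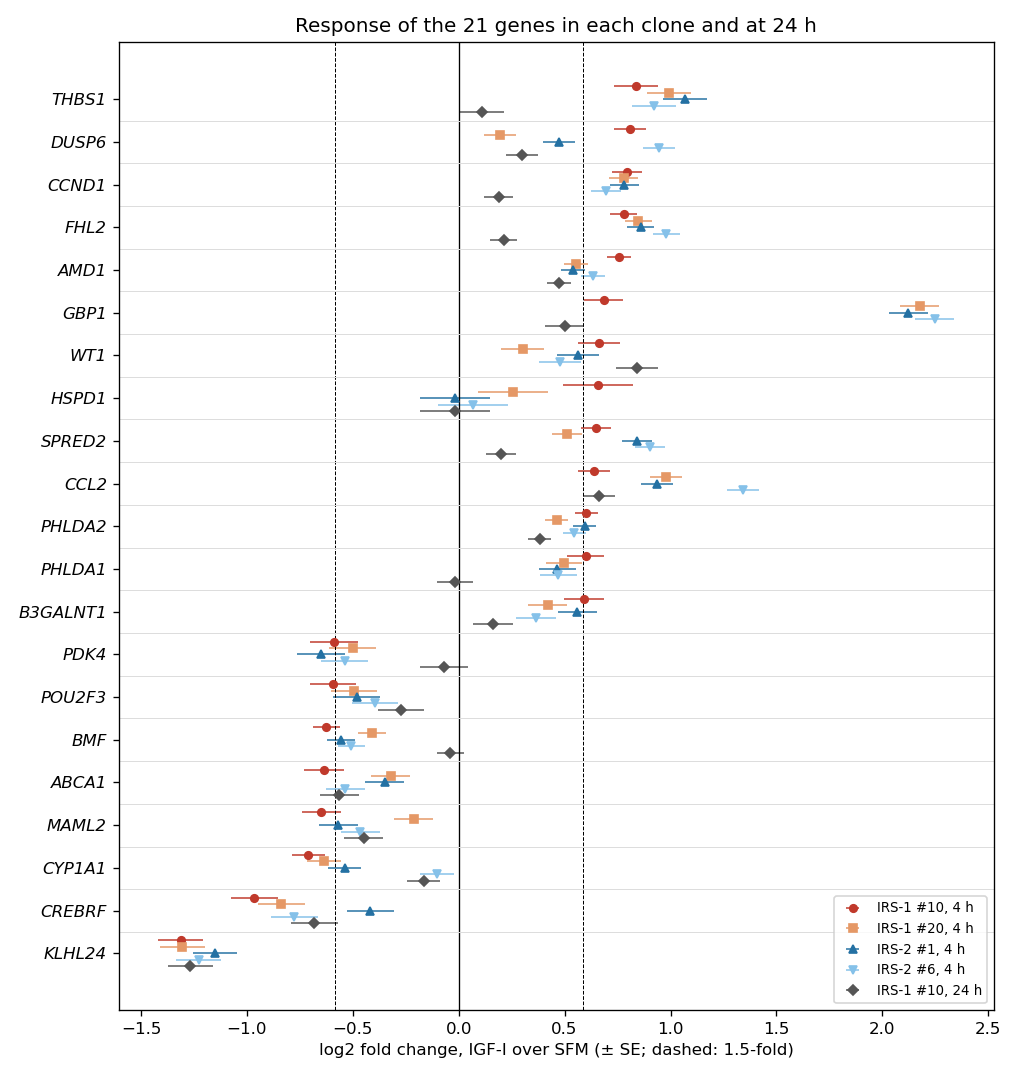
Log2 fold change of IGF-I over SFM (± SE of the fit) for the 21 called genes in #10 at 4 h (red circles), the 3 other clones at 4 h and #10 at 24 h (grey diamonds); dashed lines mark 1.5-fold. Most genes lie close together at 4 h, GBP1 stands out with about 2.2 in the other clones against 0.68 in #10, and for CCND1, THBS1, PHLDA1 and BMF the 24 h point lies near 0.

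The 4 h responses of #10 and IRS-1 #20 differed for few probe sets. The difference, #10 minus #20, was called for 14 probe sets, 0.0256%, of which 12 were negative. GBP1 rose 0.64 ± 0.09 in #10 and 2.17 in #20 on the same probe set, a difference of -1.53 ± 0.13 (adjusted p = 6.79e-11). TGFB2, a secreted TGF-beta ligand, changed by 0.35 ± 0.12 on its dimmest probe set against 1.69 in #20 (difference -1.34, adjusted p = 3.29e-06), and by 0.28 against 1.31 on its brightest (difference -1.02, adjusted p = 1.55e-05). LMCD1, a LIM-domain coregulator, differed by -0.76, GBP2 by -0.78 and DOK7, a muscle kinase adaptor, by -0.81. The GBP2 probe set, at -0.07 in #10 and 0.71 in #20, is not its brightest, and its difference passed in 1 of the 6 fits that left out an array, that without SFM A. The LMCD1 difference was on 1 of its 3 probe sets, and its brightest, 0.36 in #10 and 0.34 in #20, did not differ. DUSP6 was the called gene that rose more in #10, by 0.81 against 0.19 in #20 (difference 0.62, adjusted p = 0.0033). A CREBRF probe set fell by 0.77 in #10 and 0.02 in #20 (difference -0.75, adjusted p = 0.0033), while the probe set of CREBRF with the largest fall did not differ (-0.97 and -0.84). In a fit of only the arrays compared, 6 of the 14 differences remained, without those of GBP2, LMCD1 and DOK7.

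Against the mean of IRS-2 #1 and #6 the difference at 4 h was called for 29 probe sets, 0.0531%, and 28 of them were negative. TGFB2 led with -2.33 ± 0.14 (adjusted p = 5.51e-16), having changed by 2.38 and 2.99 in the IRS-2 clones, and GBP1 followed with -1.55 ± 0.11. MAFF, a small MAF factor, was at 0.01 in #10 and rose by 0.83 and 1.85 in IRS-2 #1 and #6 (difference -1.33, adjusted p = 2.34e-07), while its brighter probe set differed by -0.33 (adjusted p = 0.30). LMCD1 differed by -0.98 on the same probe set as before and by -0.14 on its brightest (adjusted p = 0.76). CREB5 differed by -0.85 on 1 of its 4 probe sets, with unequal responses of 0.52 and 1.6 in the 2 IRS-2 clones, and by 0.08 on its brightest. The CREB5 difference was not past the adjusted p without SFM B (-0.76) or IGF-I C (-0.79). CDKN2B, the CDK inhibitor p15, was at 0.09 ± 0.09 in #10 and rose by 0.81 and 0.99 in the IRS-2 clones (difference -0.81, adjusted p = 1.58e-05). In IRS-1 #20 CDKN2B also rose, by 0.43 (adjusted p = 0.0032), as did MAFF, by 0.59 (adjusted p = 0.0031). The differences of #10 from #20 did not pass for CDKN2B (-0.34, adjusted p = 0.54) or MAFF (-0.58, adjusted p = 0.38). NFKBIA fell in #10 but changed by -0.04 and 0.13 in the IRS-2 clones, a difference of -0.46 (adjusted p = 1.39e-05), under 1.5-fold and thus not called, and in #20 it fell by 0.38 as well.

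**Figure D4:**
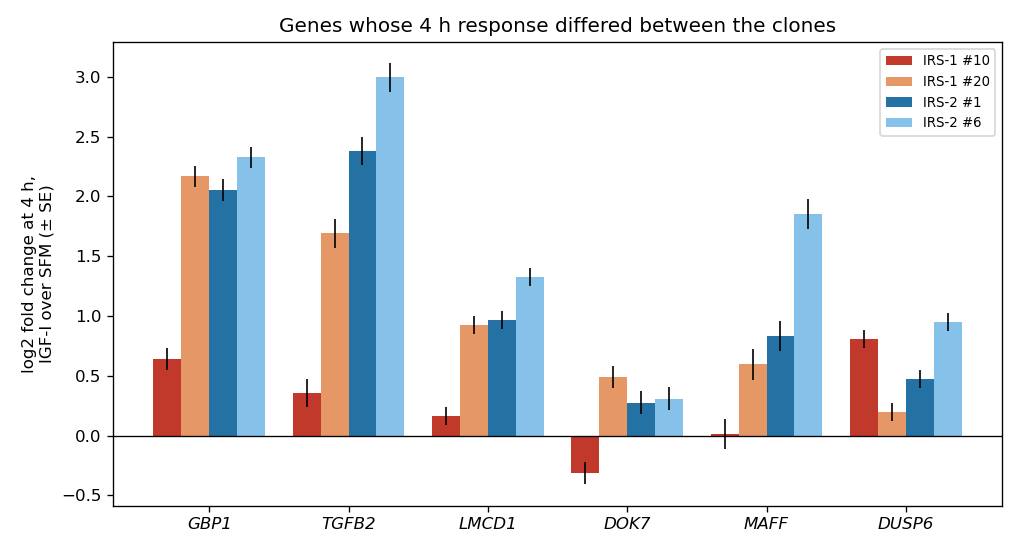
Log2 fold change of IGF-I over SFM at 4 h (± SE of the fit) in the 4 clones, for 6 genes named for a difference in response. GBP1, TGFB2, LMCD1 and MAFF are lowest in #10 (0.64, 0.35, 0.16 and 0.01), DOK7 is below 0 only in #10 (-0.32, adjusted p = 0.065), and DUSP6 is higher in #10 (0.81) than in IRS-1 #20 (0.19).

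Within #10 the 4 h and 24 h responses differed for 153 probe sets, 0.28%, with 55 more positive and 98 more negative at 4 h. Each time has its own SFM arrays. Among the called genes THBS1 (0.84 at 4 h and 0.11 at 24 h), CCND1 (0.79 and 0.19), PHLDA1 (0.60 and -0.02) and BMF (-0.63 and -0.04) had a called difference. KLHL24 (-1.31 and -1.27), ABCA1 (-0.64 and -0.56), CCL2 (0.64 and 0.66) and GBP1 (0.64 and 0.62 on one probe set) had, on the probe sets with these values, differences of at most 0.07 log2, with SEs of 0.11 to 0.15. Of the 5 largest differences 4 were of genes with the higher response at 24 h. SLC7A11 was at 0.34 at 4 h and 1.53 at 24 h (difference -1.19, adjusted p = 1.36e-07), IL6R, a cytokine receptor, at -0.02 and 0.86, PMAIP1, a pro-apoptotic BH3-only gene, at 0.15 and 1.03 on its dimmer probe set, and AURKB, a mitotic kinase, at -0.11 and 0.75. CXCR4, a chemokine receptor, was at 0.44 at 4 h (adjusted p = 0.10) and -0.42 at 24 h. The list medians at 4 h and 24 h were -0.02 and 0.40 for DNA replication and -0.06 and 0.49 for mitosis.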

How the data were processed

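The comparison used 6 Affymetrix HG-U133 Plus 2.0 arrays of T47D-YA-IRS-1 #10 cells at 4 h, 3 of them with IGF-I. The authors deposited log2 values after GC-RMA (version not given in the sources used here); the scaling to untreated cells named in their methods is not in these values. Detection could not be judged, since no probe-level intensities were used. Control probe sets, 62 in number, were left out. The platform annotation gave 1 symbol to 41091 of the tested probe sets, several to 1801 and none to 11721; by Entrez identifier 41037 found a match, and 0 symbols were updated.

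In limma 3.58.1 under R 4.3.3, group means (16) were estimated from all 48 arrays with a variance trend and 32 residual degrees of freedom, and no probe set was filtered out. IGF-I was tested against SFM, and clones and times by the difference of their responses, with Benjamini-Hochberg adjustment over 54613 probe sets; the code was tested on simulated data. In lists each gene is represented by its brightest probe set over all arrays. The rule for named genes took every called gene, up to 3 of each list by smallest adjusted p, the 5 largest differences of each contrast, the genes of the study's PCR and FOS, EGR1, IRS1, IRS2 and IGF1R; list members beyond it were named after their values were seen. The members and lists were chosen with earlier results of these data known. Left-out arrays per call, the probe sets called in every other clone, genes near the threshold and promoter letters were added later. Alternatives were quantile normalization, median centring, keeping only probe sets with a log2 value of 5 or more on 3 arrays, fits of only the arrays compared, variances without trend, Bonferroni, a 2-fold threshold, the methods' t-test, averaging the probe sets of a gene, the letter as a block and each array left out. Tables and plots were made in Python 3.11.15 with pandas 2.3.3, numpy 2.4.6 and matplotlib 3.10.9.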

Additional observations from a re-analysis of the deposited data

Results flagged for a closer look

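The response to IGF-I at 4 h differed between clone #10 and other samples by a test of the difference itself, in 3 contrasts of limma. Against IRS-1 #20 the difference was called for 14 probe sets, led by GBP1 (-1.53 log2), TGFB2 (-1.34), DOK7 (-0.81), GBP2 (-0.78) and LMCD1 (-0.76). Against the mean of IRS-2 #1 and #6 it was called for 29 probe sets, led by TGFB2 (-2.33), GBP1 (-1.55), MAFF (-1.33), LMCD1 (-0.98) and CREB5 (-0.85). Within #10, 4 h minus 24 h, it was called for 153 probe sets, led by SLC7A11 (-1.19), IL6R (-0.89), PMAIP1 (-0.87), AURKB (-0.86) and CXCR4 (0.86). Each clone is a single line, so the difference between 2 clones and that between 2 adaptors cannot be told apart for #10 alone. Groups of 3 arrays were not tested for outlying samples.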

How the results depend on the processing

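No named fold change or difference that passed the threshold changed sign under the alternatives run, but the balance of higher and lower probe sets past the adjusted p did. The 34 called probe sets became 29 to 39 under the other normalizations, filters, adjustments and left-out arrays, 3 at 2-fold, and by the methods' t-test 35 at an unadjusted p under 0.05 and 0 after Benjamini-Hochberg. Of the 34, 18 kept their call in all 6 fits that left out an array, for THBS1, DUSP6, CCND1, FHL2, AMD1, KLHL24, CREBRF, CYP1A1, MAML2, ABCA1, BMF and a probe set without a symbol. Averaging the probe sets of a gene left 14 of 23 called entries under the threshold. The 991 probe sets past the adjusted p became 1874 after quantile normalization, 498 after median centring, 125 by Bonferroni, 590 with the replicate block, 169 with the arrays compared only, 0 by the t-test after adjustment, and 442 to 1198 with 1 array left out. More were lower as reported (427 higher, 564 lower), and more were higher by Bonferroni (74, 51), after quantile normalization (959, 915), without IGF-I C (381, 306) and without SFM A (616, 582). In all 6961 had an unadjusted p under 0.05. The 14 differences from IRS-1 #20 became 6 with the arrays compared only, 5 at 2-fold and 11 to 20 with 1 array left out. The 29 from the IRS-2 clones became 7 at 2-fold and 21 to 33, and the 153 between times 3 at 2-fold, 78 by Bonferroni and 132 to 226. Deviations of same-lettered arrays from their group means in #10 at 4 h correlated by -0.066, -0.144 and 0.033. With the letter as a block 33 probe sets were called. With groups of 3 arrays, these values cannot decide whether the letters stand for a shared culture or batch. In a choice made after seeing the data, with only the first listed window of each gene, the TEAD letters were in 2 of the 10 rising genes, C/EBP-ATF in 1, and AP-1, forkhead and E2F in 0. The cause of these shifts was not tested. Signal over background cannot be read from these values, which limits dim probe sets such as those of HSPD1 and TGFB2.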
